A study of Homo sapiens with 12 samples.

Results

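The genes described here act on stored fat: they coat the lipid droplet, control the release of fatty acids from it, carry and burn those fatty acids, or are switched on by the fatty acid sensor PPARA. The set was given by name as 9 symbols (G0S2, PLIN2, ANGPTL4, CPT1A, PDK4, ACADVL, FABP1, PNPLA2 and CREB3L3), and 8 of the 9 had a row among the 10945 rows with a symbol in the deposited counts; PDK4 was not analysed here. The genes were chosen by name with results from these libraries in view, and by presence in the table, so the tests describe them and lend no independent support to the choice. Presence was itself decided by measured values, since the table as deposited lacks low rows: the third highest CPM of a row was never below 2.51. G0S2, where that value was 5.28 CPM, met that only through its 3 Plasmax libraries, and ANGPTL4, where it was 4.44 CPM, lay nearest to the limit. A difference in G0S2 between Plasmax and the other media was therefore built into its presence, and its values are given without a test.

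All samples were HepG2, an established wild-type human liver cancer line, measured by QuantSeq 3′ mRNA sequencing. Cells were maintained in EMEM with 10% heat-inactivated serum, 2 mM glutamine and 1 mM pyruvate, seeded in EMEM, and after 24 h moved to one of 4 media, each with the same share of serum, for 96 h with a renewal at 48 h. The media were EMEM, DMEM labelled low-glucose (LGDMEM) or high-glucose (HGDMEM), and Plasmax, a medium formulated after human plasma, with 3 libraries each. The labels do not state whether the 3 libraries of a medium are separate cultures. The p-values thus reflect only how these libraries vary, possibly for technical reasons, within 1 cell line.

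Hepatocytes store surplus fatty acids as triglyceride in lipid droplets, whose surface is covered by perilipins. The lipase ATGL, encoded by PNPLA2, starts the breakdown of that triglyceride; it needs the activator ABHD5 and is held back by the small inhibitor protein G0S2. Released fatty acids are carried by FABP1, enter mitochondria through CPT1A and are oxidised by enzymes such as ACADVL, and they are also ligands of the nuclear receptor PPARA, which with its partner RXRA raises transcription of many of these same genes in liver.

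The counts on rows with a symbol came to between 3995365 and 5840057 per library, which is less than full depth because of the rows removed. LGDMEM 3 stood apart on the second principal component, at −51.8 against −11.0 to 14.7 for the other 11 libraries, so results that rest on it are given with and without it. The defining hepatocyte markers were present, with 12 of 12 listed genes measured, and their summed level was lower in Plasmax (16238 to 18024 CPM) than in EMEM (22866 to 23362), LGDMEM (22645 to 26432) or HGDMEM (24048 to 27523). Of 7 adipocyte markers, another cell type rich in droplets, only PLIN4 and CIDEC had rows, summing to 3.09 to 10.5 CPM in Plasmax and 4.04 to 9.96 CPM in the other media. Of 8 endothelial and stromal markers, ACTA2 and COL1A1 had rows and summed to 66.7 to 93.0 CPM in Plasmax and 21.7 to 61.7 CPM elsewhere; of 8 leukocyte markers, CD68, CD14 and LYZ had rows and summed to 1966 to 2193 CPM in Plasmax and 2122 to 3294 CPM elsewhere. All samples were of the same cell line, so these sums are read as expression in that line and not as shares of cell types. The part of these marker differences in the results below was not tested. Such bulk RNA cannot tell a change in every cell from a change in some cells.

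Several of these genes differed between Plasmax and the other media, in both directions. CPT1A was about 3-fold higher in Plasmax than in each other medium, FABP1 was between 4.19-fold and 4.93-fold lower, and G0S2 was read almost only there. PNPLA2, PLIN2 and ACADVL rose by smaller amounts in the comparisons where they passed the test, CREB3L3 passed against HGDMEM alone, and ANGPTL4 did not pass in any. A gene was called where its adjusted p (Benjamini-Hochberg over all genes, edgeR quasi-likelihood) was below 0.05. Leaving out G0S2, whose difference was built in, called changes numbered 2 of the other 7 measured genes against EMEM (CPT1A higher, FABP1 lower), 3 of 7 against LGDMEM (these and PNPLA2, higher) and 6 of 7 against HGDMEM (these with PLIN2 and ACADVL higher and CREB3L3 lower). Of all genes tested, 22.1% were called against EMEM (10% higher and 12.1% lower), 21.2% against LGDMEM (9.48% higher and 11.7% lower) and 26.9% against HGDMEM (12.8% higher and 14.1% lower). The libraries of the media did not overlap for 5, 2 and 6 of the 7 genes, where 39.4%, 36.2% and 42.6% of all genes did not. The 3 comparisons share the Plasmax libraries and are not independent of each other.

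**Figure D1:**
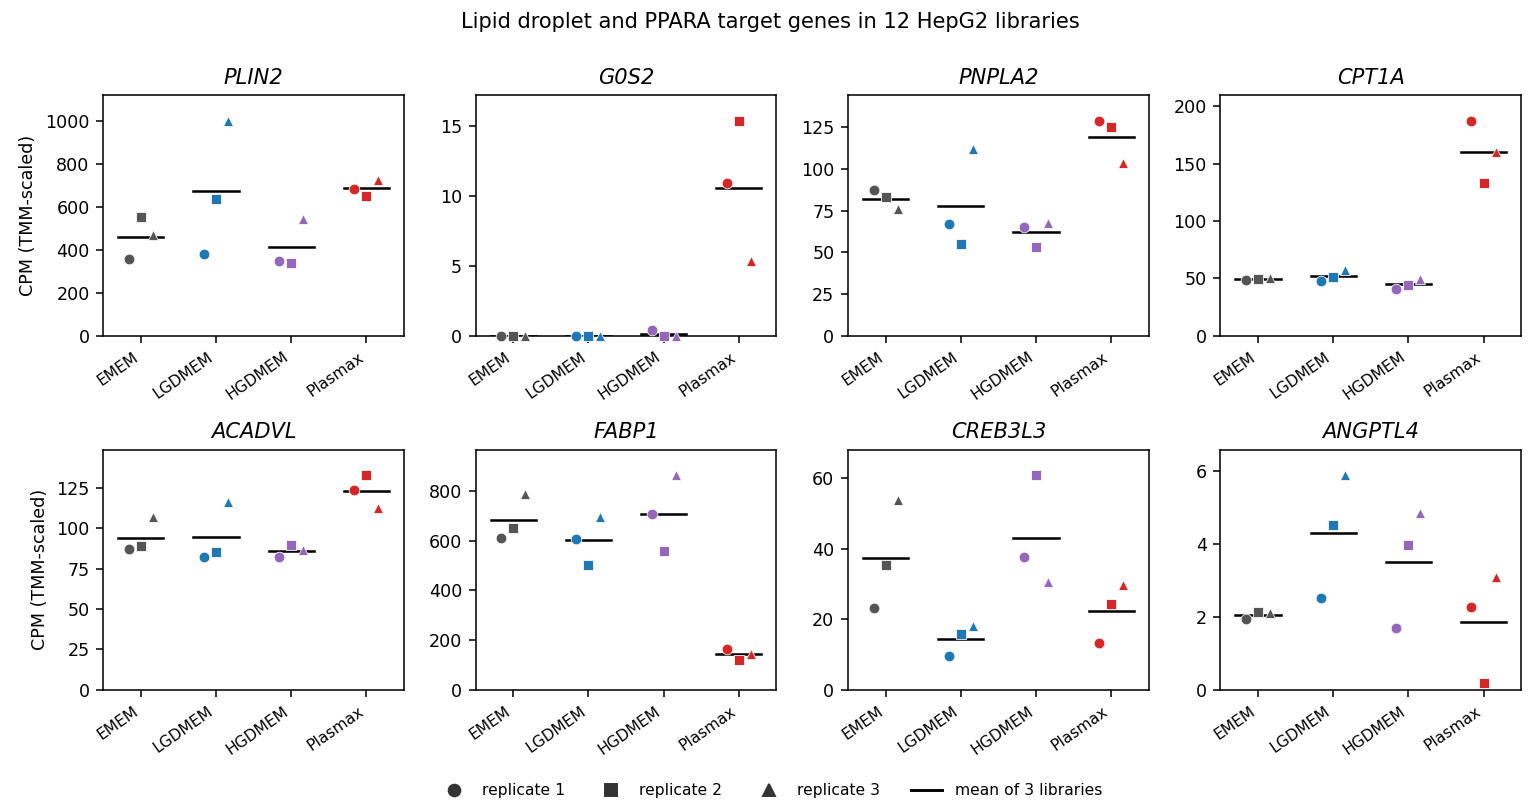
Level of each measured gene in CPM (TMM-scaled, linear axis starting at 0) in the 12 libraries by medium; symbols mark the replicate number and bars the mean of 3 libraries. CPT1A and G0S2 are high in the 3 Plasmax libraries only and FABP1 is low there, while LGDMEM 3 (triangle) is the highest library outside Plasmax for PLIN2, PNPLA2 and ACADVL.

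The proximal promoters of these genes were searched for the element that PPARA and RXRA bind, called DR1: AGGTCA, any 1 base, and AGGTCA again, with up to 3 mismatches on either strand. RefSeq promoter windows (GRCh38.p14, a later build than the one the counts were made on) were matched by symbol for 9 of 9 names, from 250 bases before to 50 after each listed start, with 2 starts for ACADVL. FABP1 held 3 matches, CREB3L3 held 1 and the second ACADVL start held 1, against a share of 20.9% of all 35116 promoter windows with at least 1. The CREB3L3 match had 1 mismatch, which 0.336% of windows reach, the best FABP1 match had 2, which 2.97% reach, and 0.578% of windows held 3 or more matches as FABP1 does. The 250 bases before the start are shown for FABP1 and CREB3L3, which hold the closest matches and were the 2 members called lower in Plasmax than in HGDMEM, and for CPT1A and G0S2, the members highest in Plasmax relative to the rest, which hold none. These were picked with their values in view, and a link of matches to direction was not tested. CREB3L3 was not called against EMEM or LGDMEM, and the height of G0S2 was built in. Of the other members called higher than in HGDMEM, ACADVL held a match with 3 mismatches, and PLIN2 and PNPLA2 held none. Each reads 5′ to 3′ on the gene's strand and ends at the base before the listed start, with matches in capitals.
FABP1, chr2:88128063-88128312, minus strand: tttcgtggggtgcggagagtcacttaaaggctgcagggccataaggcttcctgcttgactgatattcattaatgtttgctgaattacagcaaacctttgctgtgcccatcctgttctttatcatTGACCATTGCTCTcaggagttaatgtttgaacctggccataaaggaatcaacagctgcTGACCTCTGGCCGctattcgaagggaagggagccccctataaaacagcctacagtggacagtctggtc
CREB3L3, chr19:4153381-4153630, plus strand: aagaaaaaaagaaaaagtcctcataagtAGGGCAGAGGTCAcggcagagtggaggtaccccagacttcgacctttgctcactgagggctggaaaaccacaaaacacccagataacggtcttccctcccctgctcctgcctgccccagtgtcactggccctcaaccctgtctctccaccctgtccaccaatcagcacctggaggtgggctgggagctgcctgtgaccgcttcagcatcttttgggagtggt
CPT1A, chr11:68844278-68844527, minus strand: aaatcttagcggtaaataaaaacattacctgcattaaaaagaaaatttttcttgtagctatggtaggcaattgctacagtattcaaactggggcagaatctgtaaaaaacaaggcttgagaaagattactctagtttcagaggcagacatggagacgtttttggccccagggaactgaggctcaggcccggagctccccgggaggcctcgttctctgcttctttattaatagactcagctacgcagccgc
G0S2, chr1:209675162-209675411, plus strand: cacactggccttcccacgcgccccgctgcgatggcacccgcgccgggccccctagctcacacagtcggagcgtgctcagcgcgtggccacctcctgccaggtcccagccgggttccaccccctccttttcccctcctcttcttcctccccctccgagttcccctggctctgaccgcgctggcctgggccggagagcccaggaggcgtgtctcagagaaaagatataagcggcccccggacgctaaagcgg
The FABP1 matches lie 126 to 114 and 68 to 56 bases before the start, on the strand opposite to the gene, and the third, AGGTCAGTCGTGA, lies 12 to 24 bases after it. The CREB3L3 match lies 222 to 210 bases before the start. A match in this window is a description of letters and not a bound site, and the windows without one may have elements elsewhere. The other motifs searched, the E-box CACGTG (7.26% of all windows) and the forkhead site GTAAACA (3.42%), gave 1 match, an E-box 69 to 64 bases before the start of PLIN2.

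PLIN2 encodes perilipin 2, the main coat protein of droplets in hepatocytes, whose level follows the amount of stored fat. It was read at 681, 653 and 724 CPM in Plasmax replicates 1, 2 and 3, at 356, 554 and 469 CPM in EMEM and at 347, 340 and 545 CPM in HGDMEM. The LGDMEM libraries spread widely, at 382, 638 and 999 CPM. All Plasmax libraries were thus above all EMEM and all HGDMEM libraries, but inside the range of LGDMEM. The mean was 685.8 ± 35.7 CPM in Plasmax, 673.3 ± 310 in LGDMEM, 459.6 ± 99.4 in EMEM and 410.7 ± 116 in HGDMEM (SD, n = 3 libraries). PLIN2 rose against HGDMEM (log2 fold change 0.74, SE 0.25, edgeR adjusted p = 0.0348), a call that was lost in 7 of 17 alternative analyses. It was not called against EMEM (0.58, SE 0.25, edgeR adjusted p = 0.108) or LGDMEM (0.03, with a 95% interval of −0.49 to 0.55 that is not adjusted for the number of genes). LGDMEM 3 touches both: without it the PLIN2 difference from LGDMEM was 0.42 (edgeR adjusted p = 0.179) and that from EMEM, still 0.58, was called (edgeR adjusted p = 0.0336), the spread estimate being shared by all libraries in the fit. Between HGDMEM and LGDMEM the difference itself was −0.71 (SE 0.25, edgeR adjusted p = 0.453). It was −0.31 without LGDMEM 3, where it was not called, and −0.996 without LGDMEM 1 (edgeR adjusted p = 0.0210). The fit without LGDMEM 1 was the only one of 17 alternatives that called it.

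PNPLA2 encodes ATGL, the lipase of the first step of triglyceride breakdown. It was read at 129, 125 and 104 CPM in Plasmax, 87.4, 82.9 and 75.7 CPM in EMEM and 65.4, 53.5 and 67.9 CPM in HGDMEM. In LGDMEM it was read at 66.9, 55.0 and 112 CPM, so that LGDMEM 3 alone reached into the Plasmax range. PNPLA2 rose in Plasmax against HGDMEM, by a log2 fold change of 0.94 (SE 0.20, edgeR adjusted p = 0.00197), a call kept in 17 of 17 alternative analyses. It also rose against LGDMEM, by 0.62 (SE 0.20, edgeR adjusted p = 0.0348), where the call was lost in 6 of 17 and the value was 0.97 without LGDMEM 3. Against EMEM it was not called, at 0.54 (SE 0.20, edgeR adjusted p = 0.0593), but it was in 4 of the 17 alternatives planned for that comparison and, with the same value, when LGDMEM 3 was left out of the fit (edgeR adjusted p = 0.00888).

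G0S2 encodes the small protein that binds ATGL and blocks its lipase activity. It had 53, 81 and 26 reads in the 3 Plasmax libraries, 2 in HGDMEM 1 and 0 in the other 8 libraries. The Plasmax libraries, at 10.9, 15.4 and 5.37 CPM, therefore held 160 reads in all, and the other media 2. Against a floor of 3 counts over the libraries of a medium, the Plasmax level was at least 51.6-fold that in EMEM and at least 48.0-fold that in LGDMEM. The ratio to HGDMEM was 86.1, with a 95% counting interval of 23.4 to 717, since HGDMEM held only 2 reads. These values describe the reads and are no test, since the difference was built into the presence of G0S2 in the table. The bounds cover counting error only. The lipase PNPLA2, on which the inhibitor G0S2 acts, was called higher in Plasmax than in HGDMEM at the level of mRNA. For G0S2 itself that direction was not open to a test. ABHD5, the activator of ATGL, was read at 5.85 ± 1.53 CPM in Plasmax and 4.66 ± 2.84 CPM in EMEM and was not called in any comparison with Plasmax (edgeR adjusted p = 0.709 against EMEM). HILPDA, another inhibitor of ATGL, was not called either, at 12.5 ± 0.82 CPM in Plasmax and 19.1 ± 4.66 CPM in EMEM (edgeR adjusted p = 0.138).

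CPT1A encodes the liver form of carnitine palmitoyltransferase 1, the regulated gate for entry of long-chain fatty acids into mitochondria. It was read at 187, 133 and 160 CPM in Plasmax. The other 9 libraries lay between 40.7 and 57.3 CPM, far below every Plasmax library. The means were 159.9 ± 27.2 CPM in Plasmax, 52.0 ± 4.76 in LGDMEM, 49.4 ± 0.87 in EMEM and 44.7 ± 4.45 in HGDMEM (SD, n = 3), and none of the last 3 was called against another. CPT1A rose by log2 fold changes of 1.69 against EMEM (SE 0.15, edgeR adjusted p = 3.77e-07), 1.62 against LGDMEM (edgeR adjusted p = 7.65e-07) and 1.84 against HGDMEM (edgeR adjusted p = 1.01e-07). These are 3.24-fold, 3.07-fold and 3.58-fold, and the calls were kept in each of 17 alternatives per comparison, with values from 1.49 to 1.96.

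ACADVL encodes the very-long-chain acyl-CoA dehydrogenase, which catalyses the first oxidation step after CPT1A has let long chains in. It was read at 123, 133 and 113 CPM in Plasmax and at 82.3, 89.2 and 86.7 CPM in HGDMEM. The EMEM libraries were at 87.1, 88.6 and 107 CPM and the LGDMEM libraries at 82.0, 85.1 and 116 CPM, so that only LGDMEM 3 overlapped Plasmax. ACADVL rose against HGDMEM by 0.51 (SE 0.15, edgeR adjusted p = 0.0151), a call lost without HGDMEM 1 (edgeR adjusted p = 0.0574), without Plasmax 2 (edgeR adjusted p = 0.0632) and at a threshold of 0.01. Against EMEM (0.38, SE 0.15, edgeR adjusted p = 0.0713) and LGDMEM (0.38, SE 0.15, edgeR adjusted p = 0.0785) it was not called. Without LGDMEM 3 both were, at 0.38 (edgeR adjusted p = 0.0323) and 0.55 (edgeR adjusted p = 0.00942). The ACADVL changes were smaller than those of CPT1A in each comparison.

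FABP1 encodes the fatty acid binding protein of liver, an abundant cytosolic carrier and a marker of hepatocytes. It was read at 164, 121 and 146 CPM in Plasmax. The other libraries ran from 501 CPM (LGDMEM 2) to 863 CPM (HGDMEM 3), with means of 684.1 ± 90.9 CPM in EMEM, 601.5 ± 97.0 in LGDMEM and 708.8 ± 153 in HGDMEM against 143.7 ± 21.6 in Plasmax (SD, n = 3). Every Plasmax library was thus far below every other one, and the other media overlapped one another. FABP1 fell by 2.25 on the log2 scale against EMEM (SE 0.17, edgeR adjusted p = 7.33e-08), by 2.07 against LGDMEM (edgeR adjusted p = 1.64e-07) and by 2.30 against HGDMEM (edgeR adjusted p = 3.75e-08). The calls were kept in each of 17 alternatives per comparison, with values from −2.46 to −1.95. The summed hepatocyte markers given above were also lower in Plasmax, where 6 of the 12 fell and 2 rose against EMEM, and the part of that in the fall of FABP1 was not tested.

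CREB3L3 encodes CREBH, a liver transcription factor released from the endoplasmic reticulum membrane that acts with PPARA on fasting genes. It was lowest in LGDMEM, where the libraries were at 9.59, 15.7 and 18.1 CPM, below all 3 EMEM libraries (23.3, 35.2 and 53.6 CPM) and all 3 HGDMEM libraries (37.7, 60.7 and 30.5 CPM). Plasmax was between them at 13.2, 24.5 and 29.8 CPM, overlapping LGDMEM and EMEM but not HGDMEM. The order of the means was 43.0 ± 15.8 in HGDMEM, 37.4 ± 15.3 in EMEM, 22.5 ± 8.47 in Plasmax and 14.5 ± 4.40 in LGDMEM (SD, n = 3). Neighbours in that order did not differ beyond their spread by the test. CREB3L3 fell in Plasmax against HGDMEM by 0.94 on the log2 scale (SE 0.33, edgeR adjusted p = 0.0427), a call lost in 6 of 17 alternatives, and was not called against EMEM (−0.74, SE 0.33, edgeR adjusted p = 0.125) or LGDMEM (0.63, SE 0.35, edgeR adjusted p = 0.223).
Between the 2 versions of DMEM the CREB3L3 difference was 1.57 higher in HGDMEM (SE 0.34, edgeR adjusted p = 0.119), and between LGDMEM and EMEM it was −1.36 (SE 0.35, edgeR adjusted p = 0.173). Neither was called, although the libraries did not overlap. With the replicate number as a block the first was called (1.63, edgeR adjusted p = 0.0201), and with DESeq2 both were, at adjusted p = 0.00477 and adjusted p = 0.0162.

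ANGPTL4 encodes a secreted inhibitor of lipoprotein lipase and is a classical target of PPARA. It was read at 2.27, 0.19 and 3.10 CPM in Plasmax, 1.94, 2.14 and 2.10 CPM in EMEM, 2.52, 4.52 and 5.89 CPM in LGDMEM and 1.69, 3.97 and 4.86 CPM in HGDMEM. These rest on 1 to 26 reads per library, and the lowest, Plasmax 2, had 1 read. The media overlapped, except that all LGDMEM libraries were above all EMEM libraries. The differences of Plasmax from EMEM (−0.17, 95% interval −1.69 to 1.35), LGDMEM (−1.23, −2.69 to 0.24) and HGDMEM (−0.92, −2.39 to 0.54) were not called, and the intervals, which are not adjusted for the number of genes, leave room for a rise of more than 1 log2 unit against EMEM only.

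**Figure D2:**
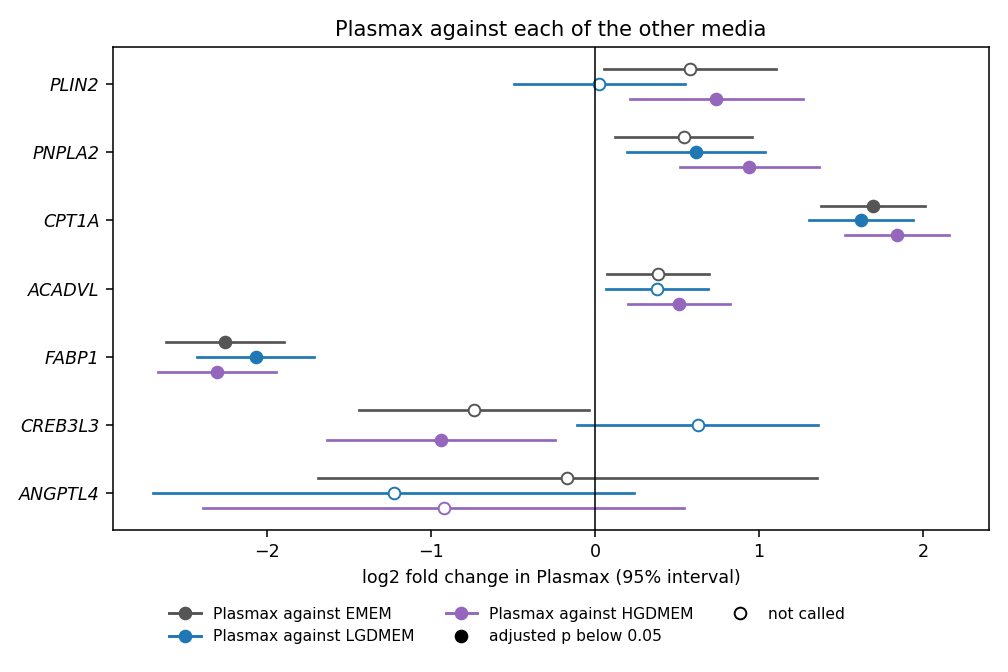
Log2 fold change in Plasmax against each other medium (x axis) for 7 genes, with 95% intervals that are not adjusted for the number of genes; filled points have an adjusted p below 0.05. CPT1A (1.62 to 1.84) and FABP1 (−2.30 to −2.07) lie apart from 0 in all 3 comparisons, and G0S2 is left out because EMEM and LGDMEM had no reads.

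G0S2 had almost no reads in EMEM, LGDMEM and HGDMEM and is left out of the comparisons among them. Of the other 7 genes 0 were called in any of these 3 comparisons in the main edgeR fit, which had no block. The share of all genes called in that fit was 0.0731% (LGDMEM against EMEM), 0.164% (HGDMEM against EMEM) and 0.064% (HGDMEM against LGDMEM). With the replicate number as a block, edgeR called CREB3L3 between HGDMEM and LGDMEM, where it called 15 of all genes. At an unadjusted p under 0.05 the counts were 2, 0 and 2, for which no share over all genes was worked out. DESeq2 called 1, 0 and 1, where it called 63, 68 and 45 of all genes. Limma voom called 0 in each, where it called 7, 21 and 4 of all genes. Libraries did not overlap for 2 genes between LGDMEM and EMEM (CREB3L3 lower and ANGPTL4 higher), 1 between HGDMEM and EMEM (PNPLA2, lower) and 1 between HGDMEM and LGDMEM (CREB3L3, higher), where 12%, 15% and 11.7% of all genes did not. Over all 4 media at once, again leaving out G0S2, 4 of 7 were called (CPT1A, FABP1, PNPLA2 and CREB3L3), with 22.9% of all genes. PLIN2 (edgeR adjusted p = 0.0598) and ACADVL (edgeR adjusted p = 0.0572) missed narrowly, and ANGPTL4 did not pass (edgeR adjusted p = 0.437).

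The receptor gene PPARA was lower in Plasmax, at 15.5 ± 3.45 CPM against 25.9 ± 5.08 in EMEM, 27.3 ± 5.21 in LGDMEM and 26.0 ± 8.01 in HGDMEM (SD, n = 3). Its log2 fold changes were −0.74, −0.82 and −0.74, with edgeR adjusted p values of 0.0499, 0.0325 and 0.0417, and the calls were lost in 14, 5 and 8 of 17 alternatives. Over all 4 media at once PPARA was not called (edgeR adjusted p = 0.0820). Its partner RXRA was not called, at 76.8 ± 9.17 CPM in Plasmax and 80.9 ± 6.07 CPM in EMEM. In the list of PPARA, its partners and cofactors, 3 of 21 measured genes rose and 2 fell against EMEM, with a median of 0.48 beside 0.02 for all genes. Of all genes 10% rose and 12.1% fell in that comparison, so the called share of this list was near the background. PPARGC1A, a coactivator of PPARA and of mitochondrial genes, was at 11.7 ± 3.61 CPM in EMEM and 33.6 ± 0.63 CPM in Plasmax and rose by 1.54 on the log2 scale (SE 0.26, edgeR adjusted p = 0.000408). The Mediator subunit MED1, whose call was lost in 4 of 17 alternatives, rose by 0.58, and HNF4A, a liver transcription factor whose call was lost in 12 of 17 alternatives and which is named after its values were seen, fell by 0.44.

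Enzymes of fatty acid oxidation were listed by organelle. In the peroxisomal list 7 of 17 measured genes fell in Plasmax against EMEM and 0 rose (median −0.51 on the log2 scale), and 6 and 7 fell against LGDMEM and HGDMEM; of all genes tested 12.1%, 11.7% and 14.1% fell. EHHADH, the peroxisomal bifunctional enzyme, went from 25.5 ± 7.19 to 9.34 ± 3.19 CPM (a log2 change of −1.46, SE 0.29, edgeR adjusted p = 0.00148), the enoyl-CoA reductase PECR fell by 1.21, the branched-chain oxidase ACOX2 fell by 1.06 and the dienoyl-CoA isomerase ECH1 fell by 0.92. The count stayed at 7 or 8 in each of the alternatives against EMEM. In the mitochondrial list 3 of 22 rose and 5 fell against EMEM, with a median of −0.06, where 10% of all genes rose and 12.1% fell; the difference between the lists was not tested. HADH, a dehydrogenase of medium and short chains, went from 92.8 ± 7.95 to 30.1 ± 4.71 CPM (a log2 change of −1.63), the thiolase ACAA2 fell by 0.98 and ACAD9, whose call was lost in 8 of 17 alternatives, fell by 1.13. ACSL5, which activates long-chain fatty acids to acyl-CoA, rose from 73.1 ± 6.53 to 191.5 ± 19.4 CPM (a log2 change of 1.39). CPT1A, which rose, was thus beside called genes of both directions. Of 5 measured ketone body genes, BDH1 fell against LGDMEM (−0.93, a call lost in 8 of 17 alternatives) and ACAT1 against HGDMEM (−0.62, lost in 5 of 17), both named after their values were seen. The fit without LGDMEM 3 was among those that lost the BDH1 call.

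Beyond PLIN2, PNPLA2 and G0S2, the droplet and lipolysis list had 0 of 17 measured genes up and 3 down in Plasmax against EMEM (median −0.19), where 10% of all genes were up and 12.1% down. LIPA, the acid lipase of lysosomes, went from 30.0 ± 7.70 to 15.1 ± 3.06 CPM (a log2 change of −0.99, SE 0.23, edgeR adjusted p = 0.00419), and the droplet proteins HSD17B11 and CIDEB fell by 0.51 and 0.48, calls that were lost in 6 and 5 of 17 alternatives. With LGDMEM 3 out of the fit 5 of the 17 were down. PLIN3, the perilipin next to PLIN2 in this list and chosen after its values were seen, was not called at 0.09. Triglyceride synthesis had 3 of 12 up and 2 down, against the same background. MTTP, which loads triglyceride onto apolipoprotein B for secretion, went from 197.7 ± 19.5 to 83.8 ± 6.74 CPM (a log2 change of −1.24), GPAT4, an acyltransferase of the first step, rose by 0.66 and AGPAT3 fell by 0.40, calls that were lost in 4 and 8 of 17 alternatives. GPAT3 (1.85) and AGPAT2 (2.48), the other 2 that rose, had low counts and were named after their values were seen, and the AGPAT2 call was lost in 4 of 16 alternatives.

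In the list of fatty acid uptake and binding genes, 2 of 7 fell and 0 rose against EMEM, where 12.1% of all genes fell and 10% rose. DBI, the acyl-CoA binding protein, went from 344.9 ± 77.8 to 112.4 ± 11.0 CPM (a log2 change of −1.62, SE 0.17, edgeR adjusted p = 3.27e-06), beside the fall of FABP1, and SLC27A2, a fatty acid transporter whose call was lost in 8 of 17 alternatives, fell by 0.78. Other PPARA targets had 2 of 11 up and 5 down against EMEM (median −0.75), against that background. APOA5, which raises triglyceride clearance, went from 53.3 ± 5.98 to 10.9 ± 2.21 CPM (a log2 change of −2.28), the acyl-CoA thioesterase ACOT2 fell by 1.09, APOA2 fell by 0.79 and APOA1, whose call was lost in 6 of 17 alternatives, fell by 0.87. The 2 that rose, VLDLR (3.96) and AQP3 (2.46), had low counts and were named after their values were seen. CPT1A, called in the same comparison, thus moved with 2 of these 11 and against 5.

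PDK4, the kinase that shuts pyruvate dehydrogenase, was not analysed here, and its complex was described through the other genes. Of 12 measured genes of pyruvate dehydrogenase and its regulators 5 fell and 0 rose against EMEM (median −0.50), where 12.1% of all genes fell and 10% rose. Against LGDMEM and HGDMEM 7 fell in each, where 11.7% and 14.1% of all genes fell. The kinases PDK3 and PDK2 fell by 1.19 and 0.77, the PDK2 call being lost in 5 of 17 alternatives, and MPC2 and MPC1, which form the mitochondrial pyruvate carrier, fell by 1.04 and 0.66. Among lipoprotein lipase genes and relatives of ANGPTL4, 2 of 6 rose and 3 fell against EMEM, against the same background. ANGPTL8 was at 4.19 ± 2.05 CPM in EMEM, 18.0 ± 8.42 in LGDMEM, 19.2 ± 6.82 in HGDMEM and 23.8 ± 5.30 in Plasmax, so its mean was lowest in EMEM. It rose against EMEM in Plasmax (log2 fold change 2.49, edgeR adjusted p = 0.000192) and in HGDMEM (2.18, edgeR adjusted p = 0.0284). The HGDMEM call was not kept in every alternative, and ANGPTL8 in LGDMEM was not called against EMEM in the main fit. APOC3, an inhibitor of lipoprotein lipase, fell by 1.28 and the hepatic lipase LIPC fell by 0.57. LMF1 (4.11) and LIPG (−2.56), the other 2 called, had few reads and were named after their values were seen, and their calls were lost in 4 of 16 and 6 of 15 alternatives.

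**Figure D3:**
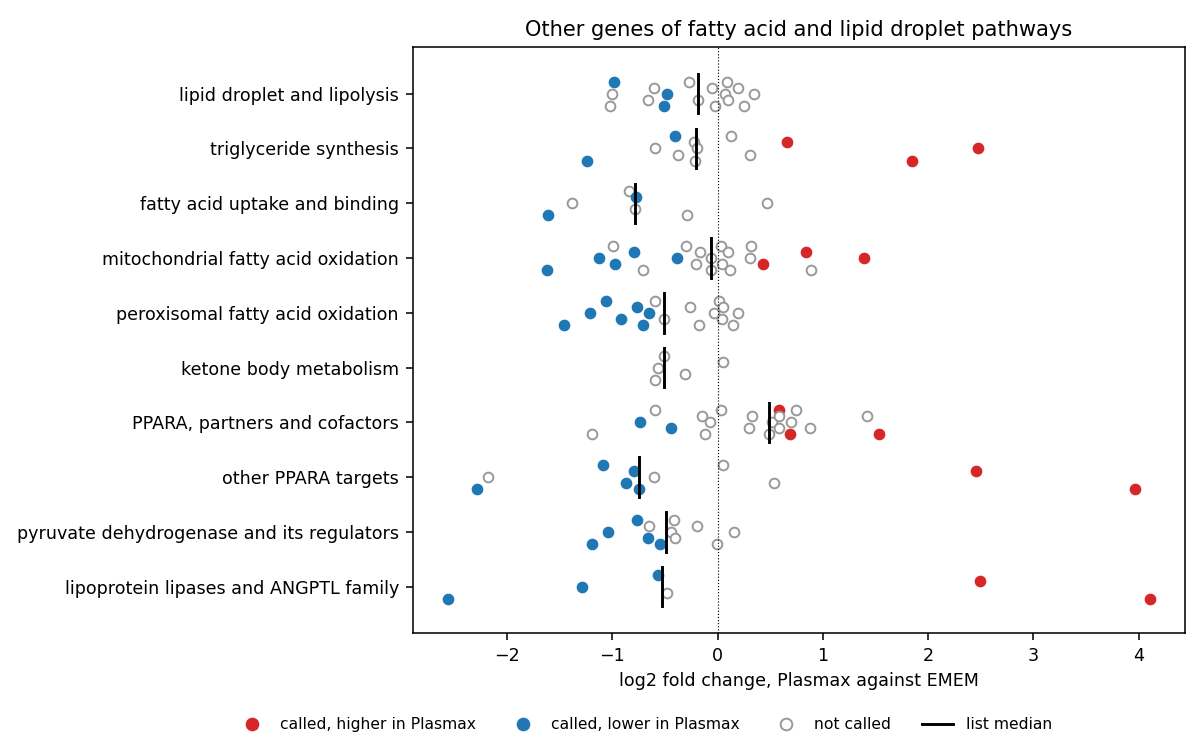
Log2 fold change in Plasmax against EMEM (x axis) for every measured gene of 10 pathway lists other than the 8 genes of the set; filled points have an adjusted p below 0.05 and black bars are list medians. The called peroxisomal genes all lie below 0, and the mitochondrial list has called genes on both sides (3 above, 5 below).

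For the 5 genes whose medium means spanned at least 1 log2 unit, the genes with the most similar pattern were found as those with the smallest root mean square difference of log2 CPM over the 12 libraries, each gene centred on its own mean, among 7842 genes whose mean reached 10 CPM. CPT1A was closest to IGFBP4 (0.15 log2 units), BCAT1 (0.17) and CDKN1A (0.19), which were 1.78, 1.55 and 1.54 higher in Plasmax than in EMEM on the log2 scale. FABP1 was closest to APOA5 (0.19), IDH2 (0.24) and DHCR7 (0.25), which were at −2.28, −1.97 and −2.35. G0S2, whose values in 9 libraries rest on 0 to 2 reads, was closest to SERPINE2 (0.79), AREG (0.82) and CSTA (0.85). CREB3L3 was less close to any gene, with ISYNA1 at 0.46, C1D at 0.48 and C12orf57 at 0.51, as was ANGPTL4, with OAS1 at 0.48, P4HA1 at 0.50 and NR0B2 at 0.51. These distances describe shared libraries with a large difference of Plasmax from the rest, and they carry no test.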

How the data were processed

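Raw counts per gene, deposited as 1 table, cover 12 QuantSeq 3′ libraries, 3 for each of 4 media. The submitters' processing notes name STAR 2.7.5b, featureCounts 1.6.3, cutadapt 1.16, FastQC 0.72, limma 3.40.6 and the build hg19/GRCh37, without role or order. The table has 11546 rows; the 601 without a symbol (2.92% to 3.71% of a library's counts) entered neither library sizes nor tests, and 0 columns belonged to other samples. No coordinates of the counting build are given.

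Computed from the deposited counts, edgeR 4.0.16 (R 4.3.3, TMM, quasi-likelihood, no block, all 12 libraries, Benjamini-Hochberg over 10945 genes at 0.05) tested 6 comparisons and the 4 media at once. The low-count filter of edgeR removed 0 genes. CPM use TMM-scaled library sizes, log2 CPM a prior count of 2, SE is the size of the log2 change over the root of its F statistic, and intervals use 8 residual and 10.4 prior degrees of freedom. The code was tested on simulated data.

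The 9 genes, the 15 lists and the rule for named genes (up to 4 called genes a list by size against EMEM averaging 10 CPM or more, and PPARA, RXRA, ABHD5 and HILPDA among others) were chosen with earlier results of these data known. Alternatives were other scalings, filters, DESeq2 1.42.0, limma voom (limma 3.58.1), an adjusted p of 0.01, fits to the media compared, the replicate block, rows without a symbol kept and each library left out; leaving LGDMEM 3 out of comparisons without LGDMEM was chosen after seeing the data.

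Replicate numbers are shared by the media. Deviations from the medium means were correlated between same-numbered libraries. Over all genes, in no comparison did all 3 correlations exceed 0.1. Over the 4366 genes above a log2 CPM of 5 they did for HGDMEM with EMEM (0.186, 0.110, 0.124) and for HGDMEM with LGDMEM (0.246, 0.165, 0.210), which count as paired. Nothing in the labels says what a number marks. Some genes of the lists are not reported here by name.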

Additional observations from a re-analysis of the deposited data

How the results depend on the processing

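CPT1A and FABP1 kept direction and call in Plasmax against EMEM, LGDMEM and HGDMEM under all alternatives run. The counts of called genes here include G0S2, whose difference was built in. The number of the 8 genes called against EMEM was 3, but 5 with library-size scaling, 6 in the fit to those media alone and 6 without LGDMEM 3. Over all genes the counts were 2417, 2424 and 2634 in the first 3 of these, with no such count made for the last. Leaving out a library of the media compared gave 3 to 3 against EMEM, 3 to 5 against LGDMEM (4 with all libraries) and 4 to 7 against HGDMEM (7 with all libraries, 4 without HGDMEM 1 or without Plasmax 2); at an adjusted p of 0.01 the last was 4. The same omissions gave 1693 to 2109 called among all genes against EMEM, 1666 to 2265 against LGDMEM and 2256 to 2434 against HGDMEM. Between LGDMEM and EMEM 0 were called but 1 with DESeq2. Between HGDMEM and LGDMEM 0 were called but 1 with DESeq2 (CREB3L3), 1 with the replicate block (CREB3L3), and 0 to 1 when a library was left out (PLIN2 without LGDMEM 1). With the replicate block PLIN2 was also called against EMEM (0.60, edgeR adjusted p = 0.0326); the block ended no call among the 8 genes. The cause of these changes was not tested. Over the alternatives the test over the 4 media called 4 to 7 (5 in the main fit), where 1419 to 3087 of all genes were called (2506 in the main fit). Counts over all genes also moved. The 8 between LGDMEM and EMEM became 87 without LGDMEM 1, 63 with DESeq2, 15 with the block and 2 without EMEM 1, the 7 between HGDMEM and LGDMEM became 118, 45 and 15 in the first 3 of these, and the 18 between HGDMEM and EMEM became 68 with DESeq2, 43 in the fit to those media and 1 without HGDMEM 2. At an adjusted p of 0.01 the counts against EMEM, LGDMEM and HGDMEM were 1290, 1254 and 1711 in place of 2417, 2321 and 2947.

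Uncalled values near 0 changed sign when a library was left out. The ranges were −0.26 to 0.42 for PLIN2 in Plasmax against LGDMEM, −0.76 to 0.37 for ANGPTL4 in Plasmax against EMEM, −0.17 to 0.11 for ACADVL and −0.43 to 0.13 for PNPLA2 in LGDMEM against EMEM, −0.11 to 0.20 for FABP1 and −0.13 to 0.55 for CREB3L3 in HGDMEM against EMEM, and −0.60 to 0.027 for ANGPTL4, −0.23 to 0.044 for ACADVL and −0.52 to 0.033 for PNPLA2 in HGDMEM against LGDMEM. ACADVL in LGDMEM against EMEM was also −0.010 with upper-quartile scaling and −0.0065 with limma voom. Over the alternatives against EMEM, genes down numbered 1 to 5 in the droplet list, 3 to 5 in the mitochondrial list, 3 to 5 among other PPARA targets and 4 to 7 in the pyruvate dehydrogenase list. Low counts limit ANGPTL4 and G0S2.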
